A study of Mus musculus with 63 samples.

Results

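The genes described here encode the proteins of the cytosolic ribosome. They were taken as the protein-coding genes whose symbol begins with Rpl or Rps and a digit, begins with Rplp, or is Rpsa, leaving out symbols that carry -ps and the Rps6k kinases. Of the 56980 gene IDs in the count tables, 86 met that rule. They comprised 52 genes of the large subunit, 33 of the small subunit and Rps19bp1, which meets the naming rule but encodes a binding partner of a ribosomal protein rather than a subunit. The genes lay on 19 chromosomes. A further 307 gene IDs with such symbols were pseudogenes or carried -ps and were not members.

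A ribosome holds one copy of most of these proteins, bound to the ribosomal RNAs of its large and small subunits. Their mRNAs are known for a run of pyrimidines at the very 5′ end, through which the mTOR pathway controls their translation as a group. Several members have a near copy elsewhere in the genome that can take the parent's place in the ribosome in some tissues. The subunits of the mitochondrial ribosome are encoded by separate genes, with symbols beginning Mrpl or Mrps.

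RNA was measured in 4 populations sorted by flow cytometry from the cortex of female C57BL/6J mice, 12 weeks old at the start, that were either burned or sham treated. All mice, burn and sham, carried AAV5-CamKII-eGFP and AAV1-mDlx-mRuby2 in the motor cortex, where the CaMKII promoter and the mDlx enhancer drive the reporters used for sorting. The burn covered 7 to 8% of the body surface on the right flank, the sham mice had no burn, and tissue was taken 5 weeks later. CaMKII positive neurons (4 burn, 6 sham) and CaMKII-mDlx double-positive neurons (9 burn, 7 sham) came from the motor cortex. ACSA2-positive astrocytes (9 burn, 8 sham) and CD11b-positive microglia (8 burn, 7 sham) came from the cortex behind it, so region and population cannot be told apart between neurons and glia. Each library was 1 population of 1 mouse, and 58 of 63 libraries, from 17 of 18 mice, were used, leaving out mouse 3 and the double-positive library of mouse 8 as the study did.

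The libraries held 13346143 to 134703744 counts, with a median of 24339895.5. The labels of both neuronal populations went against their marker genes. Summed over the microglia marker list, the double-positive libraries held 17201 to 32189 CPM (a gene's count scaled to a common library total), as high as the 20423 to 32110 CPM of the microglia libraries. Summed inhibitory neuron markers did not exceed 3.75 CPM there. The CaMKII libraries held 12639 to 23376 CPM of astrocyte markers, against 33291 to 47006 CPM in the astrocyte libraries, 3739 to 10508 CPM of endothelial markers and 27.6 to 454 CPM of excitatory neuron markers. Below, "double-positive" and "CaMKII" therefore name the sorted libraries and not a checked cell type, and the part of these markers in the results was not tested. In such bulk libraries, fewer cells of a type and less RNA per cell cannot be told apart.

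Start regions of 6 members are shown because their mRNA levels carry the comparisons below: Rps9 and Rps12 differed strongly between microglia and astrocytes, and Rps27 with its copy Rps27l, and Rpl22 with its copy Rpl22l1, shifted against each other. Each stretch runs from 40 bases before to 20 bases after the annotated start (RefSeq, GRCm38.p6), 5′ to 3′ on the gene's strand, with runs of at least 8 C or T bases in capitals where any part of the run lay within 20 bases of the start on either side. The positions are chr7:3704001-3704060 on the plus strand for Rps9, chr10:23787190-23787249 on the minus strand for Rps12, chr3:90213629-90213688 on the minus strand for Rps27, chr9:66946046-66946105 on the plus strand for Rps27l, chr4:152325686-152325745 on the plus strand for Rpl22 and chr3:28805468-28805527 on the plus strand for Rpl22l1. Rps27l and Rpl22 each have 2 annotated starts, of which the first is given.
Rps9: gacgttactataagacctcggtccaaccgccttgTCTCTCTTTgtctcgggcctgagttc
Rps12: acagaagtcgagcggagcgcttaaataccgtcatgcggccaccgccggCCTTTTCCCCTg
Rps27: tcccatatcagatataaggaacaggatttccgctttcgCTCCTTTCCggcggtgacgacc
Rps27l: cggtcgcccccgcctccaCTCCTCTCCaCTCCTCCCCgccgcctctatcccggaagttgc
Rpl22: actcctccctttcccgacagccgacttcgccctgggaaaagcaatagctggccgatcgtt
Rpl22l1: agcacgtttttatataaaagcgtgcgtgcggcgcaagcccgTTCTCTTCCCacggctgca

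Such a pyrimidine run was found in 33 of the 66 members with a start region in the table (50%), against 23.7% of all 27025 genes and 21% of all start regions there. The letters CCGGAAG, a core that ETS factors bind, lay on either strand in the region from 250 bases before to 50 after the start in 26 members (39.4%), against 9.93% of all genes. AAGATGG, the core bound by YY1, lay on either strand in 10 members (15.2%), against 7.28% of all genes. These matches describe letters and not binding. A run found this way need not lie at the very 5′ end of the mRNA. In the stretches shown, the run of Rps12 begins after the annotated start, and those of Rps27l end before it.

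The first question was how much of each library's RNA came from these genes. Microglia and double-positive libraries gave the members about 1% of all gene counts, and astrocytes well under that. The share was 1.03% ± 0.172 in microglia (SD, n = 15), ranging from 0.885 to 1.47%. In the double-positive libraries it was 0.974% ± 0.128 (SD, n = 16), ranging from 0.745 to 1.26%. CaMKII libraries gave 0.708% ± 0.200 (SD, n = 10), with the widest range, 0.398 to 0.993%. Astrocytes gave 0.411% ± 0.0633 (SD, n = 17), from 0.334 to 0.569%, so every microglia and double-positive library lay above every astrocyte library, while CaMKII libraries overlapped all 3 other populations.

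**Figure D1:**
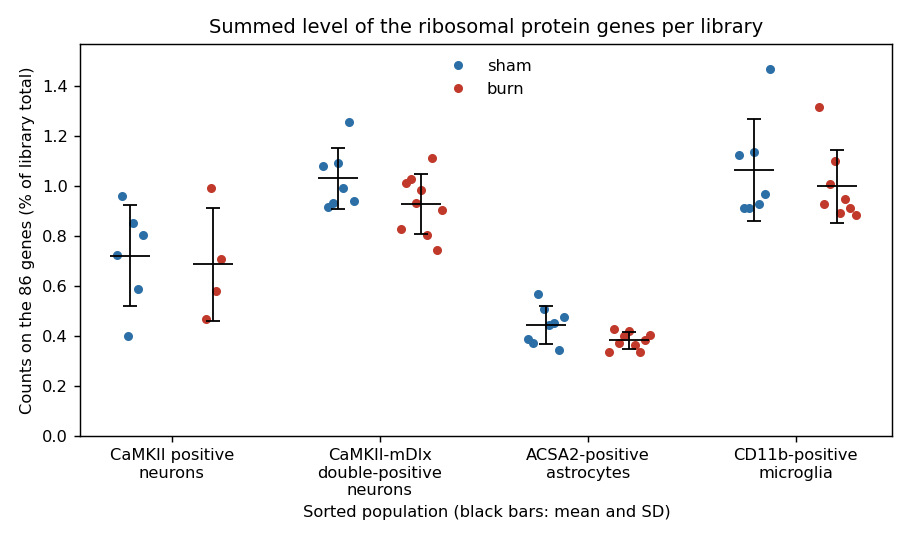
Share of each library's gene counts that fell on the 86 members (y axis, percent) by population and treatment (x axis). Points are libraries and bars the mean with its SD. Microglia (0.885 to 1.47%) and double-positive libraries (0.745 to 1.26%) sat above astrocytes (0.334 to 0.569%).

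Within animals, microglia again lay above astrocytes. In 15 of 15 mice with both libraries the share was higher in microglia than in astrocytes, by 1.61 to 3.93 times with a median of 2.55. CaMKII libraries exceeded the astrocyte library of the same mouse in 9 of 10 mice, with a median ratio of 1.74. Double-positive libraries exceeded the microglia of the same mouse in 8 mice and fell below them in 6, with a median ratio of 1.01, so those populations had no fixed order. CaMKII libraries exceeded the double-positive library of the same mouse in 2 mice and fell below it in 7, with a median ratio of 0.784. The mean ratio of large to small subunit counts was 1.43 in CaMKII libraries, 1.47 in double-positive libraries, 1.55 in astrocytes and 1.50 in microglia, so the balance of the subunits varied less than the summed share.

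Other parts of the count total also differed between astrocytes and microglia, not all of them in the members' order. Mitochondrially encoded genes took 1.83% ± 0.519 of the counts in astrocytes (SD, n = 17) and 0.592% ± 0.147 in microglia (SD, n = 15). Pseudogenes of the members took 0.0240% in astrocytes and 0.0651% in microglia on average, in the same order as the members. Many members share sequence with these copies: 82 of 86 had at least one 50-base stretch that also occurs in another gene and 38 had at least 25% of their stretches shared, so how the counting split such reads bears on each level. The way reads with several matches were counted is not given in the sources used here.

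Levels differed widely between members. Per kilobase of annotated exon, the median member reached 55.6 CPM in microglia, 50.4 in double-positive libraries, 39.4 in CaMKII libraries and 22.8 in astrocytes. Rplp1, a protein of the acidic stalk that recruits elongation factors, led in microglia at 291 CPM per kilobase and in double-positive libraries at 301. It was followed there by Rps3a1 of the small subunit, at 229 and 207 CPM per kilobase respectively. Rps15, also of the small subunit, led in CaMKII libraries at 162 and in astrocytes at 90.9 CPM per kilobase, with Rplp1 next at 153 and 88.3. Rpl10l, known as a testis copy of Rpl10, had 0 counts in all 58 libraries, which over their summed depth allows up to 0.00177 CPM.

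Of the 85 members with any count, 80 had their lowest mean level in astrocytes. The mean was highest in microglia for 55, in double-positive libraries for 24, in CaMKII libraries for 5 and in astrocytes for 1. The full order microglia, double-positive, CaMKII, astrocyte was that of 54 members, and the order with the first pair exchanged that of 23 more. At the top of this order, only Rpl22l1 passed the adjusted p between double-positive libraries and microglia in edgeR, as described below. Within a population the members largely moved together: the first principal component of log2 CPM, after taking out the group means, held 83.3% of the variance in CaMKII libraries, 65.2% in double-positive libraries, 51.3% in astrocytes and 71.7% in microglia, as a description. The median coefficient of variation of a member was 31.4% in CaMKII libraries and 16.7 to 22.1% in the other 3 populations.

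Microglia were compared with astrocytes in 1 model of all 58 libraries with batch and treatment as terms, in edgeR. A gene was called where its adjusted p was at most 0.05 and its log2 fold change (log2FC) was at least 1 in size. Of the 85 members tested, 57 were higher in microglia, where 21.7% of all 33150 genes tested were, and 1 was lower, where 32.1% of all genes were. Without the fold limit, 80 were higher (28.8% of all genes) and 3 lower (39.3%), and 70.8% of all genes had an unadjusted p under 0.05. The median log2FC of the members was 1.15 and that of all genes −0.24.

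**Figure D2:**
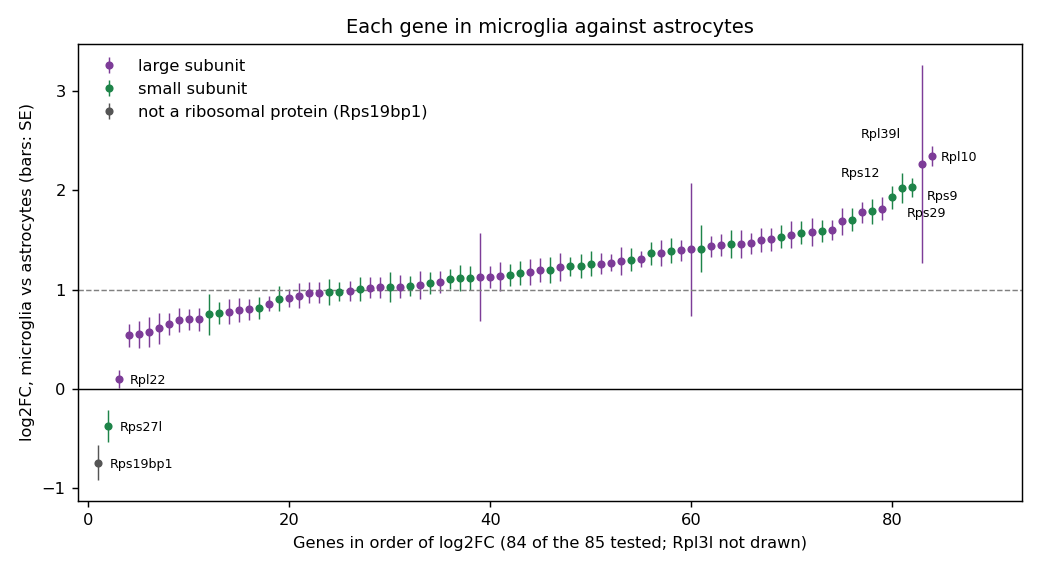
log2FC between microglia and astrocytes (y axis) for 84 of the 85 members tested, ranked from lowest to highest (x axis) and coloured by subunit, with bars of 1 standard error from edgeR and a dashed line at the fold limit of 1. Rpl3l, at −7.18, is not drawn. Most members lay near the median of 1.15, with Rpl10 at 2.35 highest and Rps19bp1 at −0.74 lowest of those drawn.

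Among the large subunit genes 31 of 51 were higher, with a median log2FC of 1.13. Rpl10 (ENSMUSG00000008682, X chromosome), a core protein that joins the large subunit late in its assembly, had the largest difference of the members higher in microglia. It ranged from 338 to 542 CPM in microglia, with a median of 386, and from 47.6 to 110 CPM in astrocytes, with a median of 75.3. No libraries overlapped, and the log2FC was 2.35 ± 0.10 (SE, adjusted p = 1.41e-29, edgeR quasi-likelihood test).

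The stalk proteins were all higher in microglia. Rplp0, the base of the stalk, had 232 to 490 CPM in microglia (median 294) and 70.1 to 107 CPM in astrocytes (median 88.4), with a log2FC of 1.82 ± 0.12 (SE). Rplp1 had 107 to 192 CPM in microglia and 27.6 to 88.9 CPM in astrocytes, with a log2FC of 1.69 ± 0.14 (SE). Rplp2, its partner on the stalk, had 113 to 194 CPM in microglia and 31.3 to 58.9 CPM in astrocytes, with a log2FC of 1.60 ± 0.10 (SE). None of the 3 overlapped between the populations, and their adjusted p-values were 6.99e-21, 5.49e-17 and 1.47e-21 in the edgeR quasi-likelihood test.

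Among the small subunit genes 26 of 33 were higher, with a median log2FC of 1.20. Rps9 (ENSMUSG00000006333, chromosome 7) had 110 to 192 CPM in microglia, with a median of 156, and 25.5 to 46.6 CPM in astrocytes, with a median of 35.9. Its log2FC was 2.03 ± 0.10 (SE, adjusted p = 4.36e-27, edgeR). Rps12 (ENSMUSG00000061983, chromosome 10) had 62.4 to 221 CPM in microglia, with a median of 117, and 17.2 to 41.5 CPM in astrocytes, with a median of 24.6. Both genes separated the populations without overlap, the log2FC of Rps12 being 2.02 ± 0.15 (SE, adjusted p = 1.70e-18, edgeR), and both carry a pyrimidine run in the stretches above. Small RNA genes lie within the exons of Rps12 on the same strand.

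Rps29, a small zinc-binding protein of the small subunit, had 92.9 to 185 CPM in microglia and 21.0 to 72.2 CPM in astrocytes, with a log2FC of 1.93 ± 0.12 (SE, adjusted p = 4.77e-22, edgeR). Rps6, the main substrate of the S6 kinases on the ribosome, had 206 to 376 CPM in microglia and 61.1 to 115 CPM in astrocytes. Its log2FC was 1.57 ± 0.12 (SE, adjusted p = 1.50e-18, edgeR), and its libraries did not overlap either. Rpsa, a small subunit protein also known as a laminin receptor, had the smallest difference of these, with 214 to 442 CPM in microglia and 93.0 to 243 CPM in astrocytes. The groups overlapped, and the log2FC of 1.12 ± 0.13 (SE, adjusted p = 3.07e-11, edgeR) fell to 0.98, short of the fold limit, in sham mice alone.

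Few members went the other way or stayed level. Rpl3l, the muscle copy of Rpl3, had 0 counts in 15 microglia libraries and 323 counts in 12 of 17 astrocyte libraries. Against the 3 counts that a total of 0 over the group allows, it was at least 95.7-fold lower in microglia. Rps19bp1 had a log2FC of −0.74 ± 0.18 (SE, adjusted p = 2.08e-04, edgeR), lower in microglia but short of the fold limit. Rps27l had a log2FC of −0.37 ± 0.16 (SE, adjusted p = 0.0397, edgeR), also short of it. The 3 members lower by adjusted p became 2 with the mouse as a block, and 2 in DESeq2. Rpl22 had 26.7 to 42.2 CPM in microglia and 20.8 to 34.9 CPM in astrocytes, with a log2FC of 0.10 ± 0.09 (SE, adjusted p = 0.366, edgeR).

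Rpl39l, a testis copy of Rpl39, was called higher on few reads, with 79 counts in 9 of 15 microglia libraries and 22 counts in 3 of 17 astrocyte libraries. The highest of these astrocyte libraries held 20 of the 22 counts. Its log2FC of 2.27 ± 1.00 (SE, adjusted p = 0.0402, edgeR) lost its call when any of 10 mice was left out, and at 1.51 within batch 3 alone.

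Copies did not share one pattern between microglia and astrocytes. Of their parents, Rps27, Rpl7, Rpl36a and Rpl39 were called higher in microglia, at log2FC of 1.39, 1.02, 1.22 and 1.58, but Rpl22 was not, at 0.10 (adjusted p = 0.366, edgeR). As a share of the parent's level per kilobase, Rps27l, which p53 is known to induce, reached 46.4% ± 17.6 of Rps27 in astrocytes (SD, n = 17; 22.6 to 82.6%) and 13.5% ± 3.33 in microglia (SD, n = 15; 8.87 to 20.8%). No libraries overlapped. In CaMKII libraries the share was 38.5% ± 13.4 (SD, n = 10) and in double-positive libraries 12.2% ± 2.51 (SD, n = 16). The mean log2 ratio was lower by 1.73 in microglia than in astrocytes: Rps27 was higher in microglia, with 63.1 to 178 CPM against 23.5 to 52.4 CPM, while Rps27l had 5.62 to 19.3 CPM there and 7.75 to 21.7 CPM in astrocytes.

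**Figure D3:**
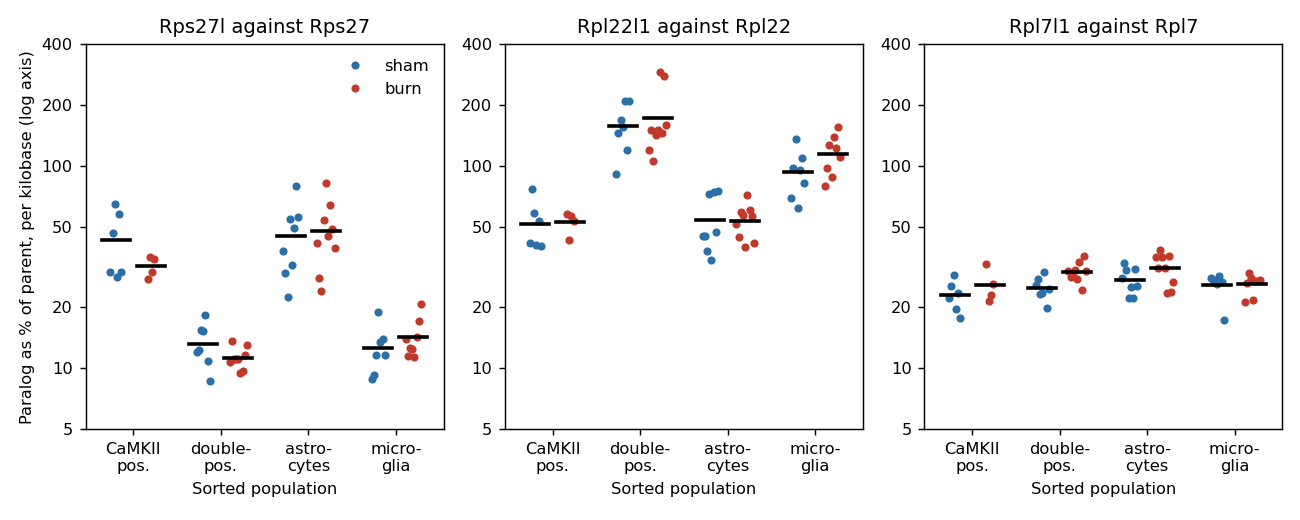
Level of a copy as a percent of its parent's level per kilobase of exon (y axis, log scale) in each library by population and treatment (x axis), with bars at the group means, for Rps27l to Rps27, Rpl22l1 to Rpl22 and Rpl7l1 to Rpl7. Rps27l was a larger share of its parent in astrocytes (22.6 to 82.6%) than in microglia (8.87 to 20.8%), and Rpl22l1 a larger share in microglia (61.7 to 156%) than in most astrocyte libraries (34.3 to 74.8%).

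Rpl22l1 shifted in the opposite direction. Rpl22 is known to repress the RNA of this copy. Rpl22l1 stood at 53.8% ± 13.5 of Rpl22 in astrocytes (SD, n = 17; 34.3 to 74.8%), at 105% ± 27.1 in microglia (SD, n = 15; 61.7 to 156%) and at 165% ± 56.4 in double-positive libraries (SD, n = 16; 91.2 to 292%). In CaMKII libraries it was 52.1% ± 11.3 (SD, n = 10), close to astrocytes. Rpl22l1 itself had a log2FC of 1.02 ± 0.11 between microglia and astrocytes (SE, adjusted p = 1.69e-12, edgeR). The third pair was nearly level: Rpl7l1, a relative of Rpl7, stood at 24.1 to 29.4% of Rpl7 on average in the 4 populations. Rpl36al stood at 3.09 to 8.52% of Rpl36a on average and had 0 counts in 10 libraries in all. These ratios are descriptions without a test.

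Between double-positive libraries and microglia no member passed both limits, where 6.37% of all genes were higher and 1.62% lower in the double-positive libraries (7.98% in all). DESeq2 also called 0. At an unadjusted p under 0.05, 7 of 85 members differed (23.5% of all genes), and the median log2FC of the members was −0.05, against 0.15 for all genes. In edgeR Rpl22l1 alone passed the adjusted p without the fold limit (8.41% of all genes higher), with 20.7 to 38.3 CPM in double-positive libraries and 14.4 to 31.4 CPM in microglia, a log2FC of 0.44 ± 0.11 (SE, adjusted p = 0.00412, edgeR). The groups overlapped widely, and in sham mice alone 0 members passed the adjusted p in edgeR (smallest 0.193). DESeq2, and edgeR with size factors or library size only, passed 2 members by adjusted p, 1 higher and 1 lower. A standard error near 0.12 for most members leaves room for differences of that size.

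CaMKII libraries lay above astrocytes by less than the fold limit in most members. The median log2FC was 0.61, against −0.03 for all genes, and 70 of 85 members were higher by adjusted p alone (18.7% of all genes) and 0 lower. With the fold limit 2 were called higher (14.1% of all genes). Rps12 had 25.8 to 116 CPM in CaMKII libraries, with a median of 68.3, against 17.2 to 41.5 CPM in astrocytes. Its log2FC of 1.10 ± 0.16 (SE, adjusted p = 1.51e-07, edgeR) fell to 0.93 without mouse 20 and 0.87 in sham mice alone, both short of the fold limit.

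Rps27rt, a retrocopy of Rps27 with a median of 1.30 CPM in CaMKII libraries and 0.547 CPM in astrocytes, was the second, at a log2FC of 1.03 ± 0.27 (SE, adjusted p = 0.00172, edgeR). It shares 91.1% of its 50-base stretches with other genes, and with the mouse as a block its log2FC was 0.91, below the limit. Short of the limit, Rpl10 stood at 0.87 ± 0.11 and Rps6 at 0.85 ± 0.13 (SE). The count of 2 rested on the fold limit and the scaling. It was 9 with scaling by library size alone, 8 within batch 3, 1 without mouse 23 and 0 without mouse 20 or in sham mice alone.

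CaMKII libraries lay below double-positive libraries. The median log2FC was −0.55, against 0.14 for all genes. By adjusted p alone 63 of 85 members were lower (25.2% of all genes) and 3 higher (34%), and with the fold limit 8 were lower (17.5%) and 1 higher (27.7%). The share of members lower with the fold limit was thus below that of all genes. Rps9 had 45.9 to 108 CPM in CaMKII libraries, with a median of 62.0, and 128 to 225 CPM in double-positive libraries, with a median of 174. The groups did not overlap, with a log2FC of −1.52 ± 0.12 (SE, adjusted p = 1.15e-17, edgeR).

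Rpl10 had 95.9 to 240 CPM in CaMKII libraries and 307 to 478 CPM in double-positive libraries, again apart, with a log2FC of −1.43 ± 0.12 (SE, adjusted p = 1.62e-16, edgeR). The other members called lower included Rpl24, Rpl22l1, Rps29, Rpl10a and Rplp1, with log2FC from −1.68 to −1.09. Rplp1, the smallest of these, fell short of the fold limit at −0.99 with all deposited libraries or library size scaling, −0.98 without mouse 2 and −0.95 without mouse 16. Rpl24 had at most 5.56 CPM in any of these libraries and shares its strand with an overlapping gene model, so its level is uncertain. Without mouse 20 the count of calls rose from 9 to 15. Rpsa, by contrast, had 96.9 to 350 CPM in CaMKII libraries and 187 to 314 CPM in double-positive libraries, with a log2FC of −0.12 ± 0.15 (SE, adjusted p = 0.511, edgeR).

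The 3 members higher by adjusted p in CaMKII libraries were Rps27l, Rpl22 and Rpl3l. Rps27l had 11.3 to 38.6 CPM in CaMKII libraries and 6.33 to 12.6 CPM in double-positive libraries, with a log2FC of 0.79 ± 0.19 (SE, adjusted p = 2.85e-04, edgeR). Rpl22 had 27.9 to 58.5 CPM against 18.6 to 39.2 CPM, with a log2FC of 0.37 ± 0.11 (SE, adjusted p = 0.00341, edgeR). Rpl3l was called higher on 267 counts in 5 of 10 CaMKII libraries, 169 of them in 1 library, against 15 counts in 3 of 16 double-positive libraries.

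The mitochondrial ribosome did not follow the cytosolic one. Of 77 mitochondrial ribosomal protein genes tested, 0 were called higher in microglia than in astrocytes (21.7% of all genes) and 30 lower (32.1%). By adjusted p alone 6 were higher (28.8%) and 65 lower (39.3%). Their median log2FC was −0.89, against 1.15 for the cytosolic members. In CaMKII libraries against astrocytes 0 were higher (18.7% of all genes) and 41 lower (14.1%) by adjusted p, with a median of −0.38. Against double-positive libraries 46 were higher (34%) and 7 lower (25.2%), with a median of 0.46. In each of these 3 comparisons the 2 medians had opposite signs, and no test compared the lists.

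**Figure D4:**
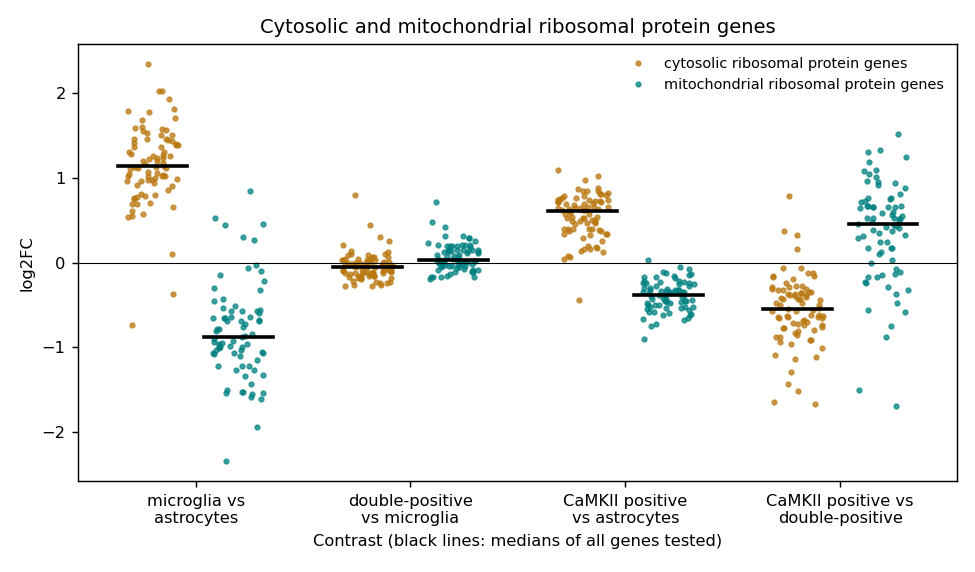
log2FC (y axis) of the cytosolic members and of the 77 mitochondrial ribosomal protein genes tested, in each comparison of populations (x axis). Points are genes and bars the medians of all genes tested. Rpl3l and Rpl39l are not drawn. The medians of cytosolic and mitochondrial genes were 1.15 and −0.89 between microglia and astrocytes and lay near 0 between double-positive libraries and microglia.

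Among genes outside the naming rule that encode a ribosomal protein or a partner of the ribosome, Fau, which encodes a ubiquitin-like protein fused to a small subunit protein, was higher in microglia than astrocytes at a log2FC of 2.04 ± 0.12 (SE, adjusted p = 4.03e-22, edgeR). Rack1, a scaffold on the small subunit, was higher at 1.36 ± 0.10 (SE, adjusted p = 4.47e-19, edgeR).

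Among 18 other translation genes, mostly elongation and initiation factors, 13 were higher in microglia than astrocytes by adjusted p (28.8% of all genes) and 0 lower (39.3%), with a median log2FC of 0.51. Of 32 ribosome biogenesis genes, 14 were higher and 6 lower, with a median of 0.22. Of 22 genes of the mTOR and S6 kinase pathway, 9 were higher and 8 lower, with a median of −0.05, the share lower being near that of all genes. The members' median of 1.15 was above that of each of these lists, as a description.

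What the members share beyond their role was set beside the difference between microglia and astrocytes. The 33 members with a pyrimidine run in the start region had a median log2FC of 1.11, and the 32 tested members without one 1.16. Members with at least 25% of their stretches shared with other genes had a median of 1.25, against 1.06 for the others. The 43 members with the higher levels per kilobase had a median of 1.20 and the other 42 tested 1.09. The split by pyrimidine run leaves out members without a matched start region. These medians are descriptions, and whether any of these features bears on the difference was not tested.

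The study's own question was what the burn changed. In edgeR no gene passed the limits between burn and sham in any population, 0 of 28107, 26707, 27930 and 26079 genes tested in CaMKII, double-positive, astrocyte and microglia libraries (0%), with or without the fold limit. DESeq2 on the same genes called 3, 2, 27 and 80, of which 0 were members, and 0 members passed its adjusted p without the fold limit. At an unadjusted p under 0.05 in edgeR the members numbered 0 of 85 in CaMKII libraries (3.9% of all genes), 16 of 85 in double-positive libraries (7.01%), 25 of 85 in astrocytes (10.7%) and 7 of 84 in microglia (7.81%). Of these, 16 in double-positive libraries (3.53% of all genes), 23 in astrocytes (3.46%) and 6 in microglia (3.58%) were lower after the burn. DESeq2 gave 0, 13, 26 and 8. These counts were unstable: with each mouse left out in turn they ranged from 4 to 41 in double-positive libraries, from 13 to 42 in astrocytes and from 2 to 22 in microglia. In double-positive libraries the count was 4 of 85 without mouse 18 or mouse 23, all lower after the burn, and 41 without mouse 22. In the fit with no mouse left out in turn, 3.53% of all genes were lower at that limit. In astrocytes the lowest count was without mouse 15 and the highest without mouse 18, and in microglia the lowest was without mouse 19 or mouse 21 and the highest without mouse 2. Among genes of at least 3 log2 CPM, where most members lie, the shares were 2.3, 3.6, 8.75 and 4.95%, and 51, 50.8, 50.4 and 46.8% of those genes had a log2FC below 0.

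The members leaned one way in 3 of 4 populations. Their log2FC was below 0 in 80 of 85 in double-positive libraries (50.8% of all genes), 76 of 85 in astrocytes (44.2%) and 73 of 84 in microglia (49.5%), and in 55 of 85 in CaMKII libraries (48.2%). The median log2FC was −0.17, −0.21 and −0.16 in the first 3 and −0.06 in CaMKII libraries. Since the members move together within a library and the same mice gave all 4 populations, these counts are not independent of each other and have no test. With all deposited libraries the lean in double-positive libraries turned, with 6 of 85 below 0 and a median of 0.23. That setting adds mouse 3 and the sham library of mouse 8, which held 331215 counts, 0.0426% of them on the members. The part of each added library in the turn was not tested. Within batch 3 alone the medians were −0.18, −0.20 and −0.17, but 0.11 in CaMKII libraries.

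**Figure D5:**
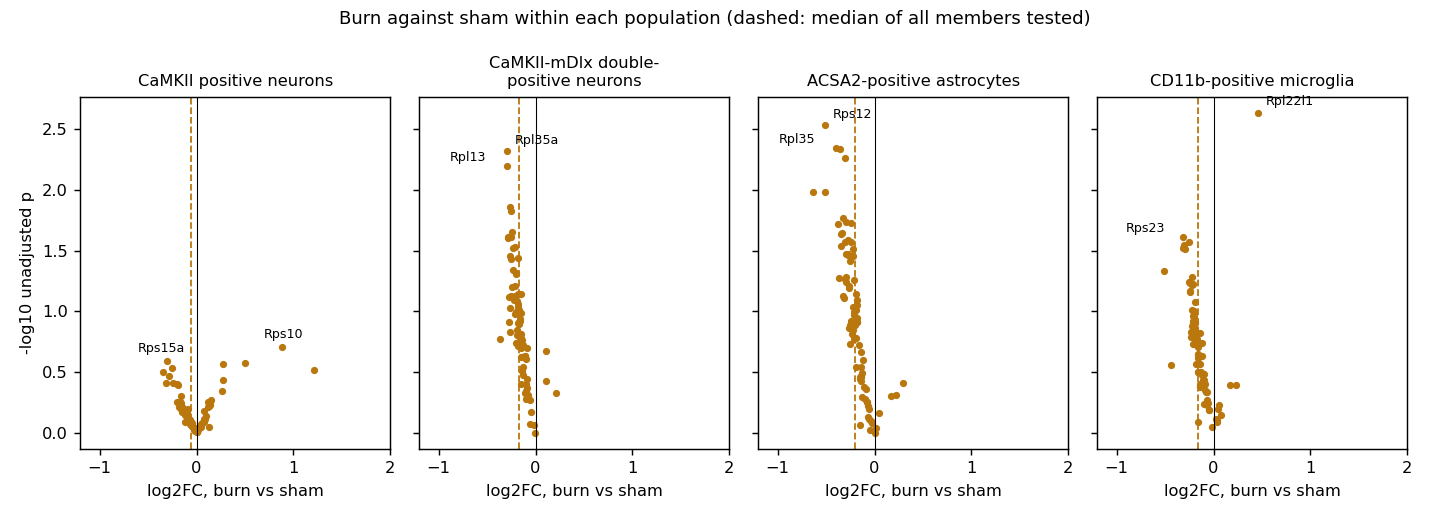
log2FC between burn and sham (x axis) against −log10 of the unadjusted p (y axis) for the members, in 1 panel per population. Points are genes, with the 2 smallest p-values in each panel named, and the dashed line is the median of all members tested; Rpl3l, Rpl39l and Rpl36al are not drawn. The medians were −0.06 in CaMKII, −0.17 in double-positive, −0.21 in astrocyte and −0.16 in microglia libraries, and no gene passed an adjusted p of 0.05 in edgeR.

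As a share of all counts the groups overlapped in every population. In astrocytes the burn libraries gave 0.383% ± 0.0339 (SD, n = 9; 0.334 to 0.427%) and the sham libraries 0.444% ± 0.0747 (SD, n = 8; 0.345 to 0.569%). In double-positive libraries the values were 0.929% ± 0.120 (SD, n = 9; 0.745 to 1.11%) and 1.03% ± 0.122 (SD, n = 7; 0.918 to 1.26%). In microglia they were 1.00% ± 0.146 (SD, n = 8; 0.885 to 1.32%) and 1.07% ± 0.203 (SD, n = 7; 0.913 to 1.47%). CaMKII libraries gave 0.688% ± 0.226 in burn (SD, n = 4; 0.467 to 0.993%) and 0.722% ± 0.202 in sham (SD, n = 6; 0.398 to 0.961%).

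The library of sham mouse 19 weighed on the microglia value. Without it the median log2FC of the members was −0.02, with 53 of 84 below 0. In CaMKII libraries the sign itself turned, from −0.25 without mouse 20 to 0.10 without mouse 2 or mouse 8. Summed markers of other cells overlapped between burn and sham, and their difference was not tested. Border macrophage markers ranged from 208 to 409 CPM in burn and 80.8 to 313 CPM in sham microglia, and endothelial markers there from 60.0 to 104 CPM in burn and 70.8 to 178 CPM in sham. In astrocytes endothelial markers ranged from 458 to 1402 CPM in burn and 143 to 809.5 CPM in sham, and excitatory neuron markers from 24.9 to 266 CPM in burn and 17.4 to 1581 CPM in sham, with medians of 74.2 and 34.2. All-neuron markers there ranged from 504 to 629.5 CPM in burn and 516 to 1153 CPM in sham. In double-positive libraries endothelial markers ranged from 61.4 to 633 CPM in burn and 60.2 to 114 CPM in sham, and oligodendrocyte precursor markers from 8.30 to 165 CPM in burn and 6.29 to 21.7 CPM in sham. In CaMKII libraries oligodendrocyte markers ranged from 369.8 to 953 CPM in burn and 293 to 3823 CPM in sham. Mural cell markers there ranged from 597 to 1125 CPM in burn and 921 to 1530 CPM in sham. Oligodendrocyte precursor markers there ranged from 416 to 666 CPM in burn and 289 to 560 CPM in sham. Their part in the members' values was not tested.

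In astrocytes the 3 members with the smallest p were all lower after the burn. Rps12 had 17.2 to 30.6 CPM in burn libraries, with a median of 21.8, and 21.4 to 41.5 CPM in sham libraries, with a median of 29.7. The log2FC was −0.51 ± 0.15 (SE, unadjusted p = 0.00294 and adjusted p = 0.458, edgeR). Rpl35 of the large subunit had a log2FC of −0.40 ± 0.13 and Rps23, a small subunit protein of the decoding centre, −0.35 ± 0.11 (SE), with the same adjusted p.

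In double-positive libraries these were Rpl35a, Rpl13 and Rpl18 of the large subunit. Rpl35a had 95.0 to 162 CPM in burn libraries and 119 to 170 CPM in sham libraries, with a log2FC of −0.29 ± 0.09 (SE, unadjusted p = 0.00479, adjusted p = 0.708, edgeR). Rpl13 stood at −0.29 ± 0.10 and Rpl18 at −0.27 ± 0.10 (SE). All 3 groups of values overlapped. Adding back the 2 left-out double-positive libraries turned the sign of all 3, to between 0.15 and 0.16. In the left-out library of sham mouse 8, which held 331215 counts, all 3 genes had 0 CPM.

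In microglia Rpl22l1 led and was higher after the burn, against the lean of the other members. It had 19.9 to 31.4 CPM in burn libraries, with a median of 24.5, and 14.4 to 24.8 CPM in sham libraries, with a median of 20.0. The log2FC was 0.46 ± 0.13 (SE, unadjusted p = 0.00233, adjusted p = 0.639, edgeR). Rps23 stood at −0.31 ± 0.13 (SE), with the same adjusted p, and at −0.15 without sham mouse 19. As a share of Rpl22, Rpl22l1 was 115% ± 25.9 in burn (SD, n = 8) and 93.1% ± 25.1 in sham microglia (SD, n = 7), within the spread of the libraries.

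In CaMKII libraries, the smallest groups, none of the 3 members with the smallest p fell under 0.05. Rps10 had 1.31, 6.29, 6.50 and 7.22 CPM in the 4 burn libraries and 1.16 to 5.30 CPM in the sham libraries, with a log2FC of 0.88 ± 0.65 (SE, unadjusted p = 0.194, edgeR). Rpl13a had 3.90, 8.16, 9.66 and 9.67 CPM in burn libraries and 4.06 to 7.63 CPM in sham libraries, with a log2FC of 0.50 ± 0.43 (SE, unadjusted p = 0.268, edgeR). Rps15a had 44.3, 46.9, 48.5 and 84.2 CPM in burn libraries and 47.4 to 114 CPM in sham libraries, with a log2FC of −0.31 ± 0.26 (SE, unadjusted p = 0.255, edgeR). Leaving out 1 mouse at a time moved these values, Rps10 from 0.69 to 1.26, Rpl13a from 0.39 to 0.77, the highest without mouse 22, and Rps15a from −0.55 without mouse 20 to −0.16 without mouse 22. The adjusted p was 1.00 for each, and Rps10 and Rpl13a are low genes whose exons overlap other gene models on the same strand.

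Whether the burn acted differently on 2 populations was tested directly. Between microglia and astrocytes 0 of the members passed an adjusted p of 0.05 for the interaction (0.00323% of all genes), with 4 at an unadjusted p under 0.05 (8.67% of all genes) and a smallest adjusted p of 0.441. Between CaMKII and double-positive libraries 0 passed (0.00977%), with 1 at an unadjusted p under 0.05 (6.01%) and a smallest adjusted p of 0.784. DESeq2 was not run on the interactions.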

How the data were processed

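RNA of 4 sorted populations was sequenced from stranded total RNA libraries after depletion of ribosomal RNA. The deposited values are raw read counts per Ensembl gene ID, 1 table per population, made by the authors from reads trimmed with fastp, aligned with STAR and counted per gene. The submitters' processing notes name both GRCm39 and mm10 as builds. The strand setting and the treatment of reads with several matches are not given in the sources used here. Total counts ran from 13346143 to 134703744 over the 58 libraries used, so a single count was worth well under 0.1 CPM, and limits from counts of 0 cover counting error only.

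Gene names, types and exon lengths were taken from GENCODE and RefSeq annotation of GRCm38 by gene ID, and 52125 of 56980 IDs were named. Start regions came from RefSeq (66 of 86 members matched). CPM is a gene's count divided by its library's total count and scaled to a common total. Tests used edgeR 4.0.16 in R 4.3.3: TMM scaling, genes with at least 10 counts in total, quasi-likelihood F-tests, Benjamini-Hochberg adjustment over all genes tested. Burn and sham were compared per population with batch as a term, and populations in 1 fit of all libraries on batch, treatment and population. Standard errors are the log2FC divided by the root of F. Batches follow the study's animal table (mice up to 10, up to 14, and from 15). The replicates are mice.

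The same mouse gave several populations, so libraries are paired by animal. The median correlation of their deviations over 15627 genes was 0.026 for microglia with astrocytes (14 mice), 0.051 for CaMKII with double-positive libraries (9), 0.013 for double-positive libraries with microglia (13) and 0.059 for CaMKII with astrocytes (10). A fit with the mouse as a block was an alternative.

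The other alternatives were DESeq2 1.42.0, other scalings and filters, no batch term, 1 batch or sham mice alone, all deposited libraries, and leaving out each mouse. Members named between populations were the 3 largest fold changes among those called, with fixed members of the stalk, Rpsa and Rps6; between burn and sham they were the 3 smallest p-values. Some results that this rule would name are not reported here. Others named were chosen after their values were seen. The members, lists and markers were chosen with earlier results of these data known. The fits were checked on simulated counts. Python 3.11.15 made the tables and figures.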

Additional observations from a re-analysis of the deposited data

Results flagged for a closer look

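In groups of 4 to 10 libraries, 64 sets of values were searched for a highest or lowest library far from the others by Dixon's ratio, which chance alone marks in about 1 of 20 sets, and 6 were marked. They fell on 3 libraries. In CaMKII libraries of burned mice, mouse 20 had the lowest Rps10 level, 1.31 CPM where the other 3 had at least 6.29, and the highest Rps15a level, 84.2 CPM where the next had 48.5. Among CaMKII libraries of sham mice, mouse 18 had the highest Rps10 level, 5.30 CPM against 2.67 for the next. In sham microglia, mouse 19 stood apart in 3 measures. The members took 1.47% of its counts against 1.14% in the next library, Rps23 reached 289.8 CPM against 189 CPM, and Rpl7l1 stood at 17.4% of Rpl7 per kilobase against 26.0% in the next lowest.

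The double-positive library of sham mouse 8 entered only the alternative with all deposited libraries. It held 331215 counts, of which pseudogenes of ribosomal proteins took 2.15%. No double-positive library of the main fits exceeded 0.0815%. Rps12-ps4 had 1032 counts there, while the members themselves took 0.0426% of that library. No explanation was tested for any of these values.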

How the results depend on the processing

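Of the values that answer a comparison, 591 stayed within 1.5 times (counts) or moved by less than 1 SD between libraries (medians and shares) under an alternative and 15 did not. Moves within 1 SD included changes of sign: the CaMKII burn median of −0.06 was 0.11 in batch 3 alone and −0.25 to 0.10 with each mouse left out, and the burn minus sham difference in summed share, −0.0344 percentage points in CaMKII libraries and −0.0657 in microglia, reached 0.0400 in CaMKII libraries in batch 3 alone, and 0.0392 and 0.0018 with a mouse left out. Of the values of single named members, 1015 kept theirs, 23 lost a call, 3 gained one and 9 changed sign. With all deposited libraries the burn median in double-positive libraries was 0.23, Rpl35a stood at 0.15, Rpl13 at 0.15 and Rpl18 at 0.16, the summed share differed by 0.0310 percentage points between burn and sham, Rplp1 stood at −0.0394 between double-positive libraries and microglia, and 1 member was called there. That count was also 1 with edgeR's own expression filter and with no minimum fold, and 0 to 1 when each mouse was left out, the 1 being without mouse 17, while Rplp1 ranged from −0.0092 to 0.0733. The members called between CaMKII libraries and astrocytes numbered 1 with the replicate block, 9 with library size only, 8 in batch 3 alone, 0 in sham mice alone, 70 with no minimum fold and 0 to 3 when each mouse was left out. Between CaMKII and double-positive libraries 66 were called with no minimum fold and 8 to 15 with each mouse left out, and Rpsa ranged from −0.27 to 0.0219. Between microglia and astrocytes 52 to 65 were called with each mouse left out. Over all genes, burn against sham gave 0 calls in each population in edgeR and 3, 2, 27 and 80 in DESeq2 (CaMKII, double-positive, astrocyte, microglia), 0 of them members. The replicate block moved no other count of calls by more than 1.5 times. Except for the fold limit and the smaller sets of mice, the causes were not tested.

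The main limits are the marker genes of other cells in both neuronal populations, 4 burn libraries in the CaMKII population, batches that hold few or no sham mice, and shared sequence between members and their copies. Batches 1 and 2 hold too few libraries of both groups for values of their own. Depth limits Rpl3l, Rpl10l, Rpl39l and Rpl36al, which have few or no counts. The mice were shared between populations, so the burn values of the 4 populations are not independent.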
